A study of Mus musculus with 4 samples.

Results

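Caspases and inhibitors of apoptosis were followed in C2C12 myoblasts, a mouse satellite cell line from thigh muscle, through 8 genes: Xiap, Birc2, Birc3, Casp8, Casp9, Apaf1, Diablo and Cflar. These genes were found on the arrays through the RefSeq accession of each probe, which gave 11 probes of 39429 gene probes, and 8 genes of 19751 genes named in this way. The palmitate group consisted of 4 cultures exposed for 48 h to 0.1 mmol/l palmitate, complexed to fatty acid-free bovine serum albumin and added to DMEM with 5% FBS. The control group consisted of 4 untreated cultures with the same ethanol and albumin, also at day 3 of proliferation. The sample label of the control gives a medium with 10% HS, whereas the treatment notes give 5% FBS for both groups. Each of 4 two-colour Agilent arrays held 1 control culture labelled with Cy3 and 1 palmitate culture labelled with Cy5, and the question was how palmitate changes the transcriptome of proliferating myoblasts. The dyes were not exchanged, so that dye and treatment cannot be told apart.

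Caspases are cysteine proteases that dismantle the cell during apoptosis. In the intrinsic pathway, cytochrome c released from mitochondria joins Apaf1 into the apoptosome, which activates caspase 9. In the extrinsic pathway, death receptors activate caspase 8, and Cflar (c-FLIP), which resembles caspase 8 without its protease activity, holds this step back. Xiap blocks caspases directly through its BIR domains, Birc2 and Birc3 (cIAP1 and cIAP2) are ubiquitin ligases that act mainly at the receptor complexes, and Diablo (Smac), once released from mitochondria, displaces these inhibitors. In muscle cells, caspases are also known for a role in differentiation, beside cell death.

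Of the 8 genes, 7 had a probe that could be tested, meaning that the scanner software called it well above background in the same dye on each of the 4 arrays, and these gave 10 tested probes. The probe of Birc3 was well above background on 0 of 4 arrays in either group, so that no ratio is given for it. In limma, with Benjamini-Hochberg adjustment over all 24169 tested probes, 0 of the 10 probes were lower and 0 were higher with palmitate at an adjusted p of 0.05, as were 0% of all tested probes. At an unadjusted p under 0.05, 2 were lower (Xiap and 1 probe of Cflar), where 11.1% of all tested probes were lower, and 1 was higher (Casp8), where 10.8% were higher. A log2 ratio below 0 on all 4 arrays was found for 3 of the 10 probes, and 14.6% of all tested probes had this pattern. A ratio above 0 on all 4 arrays was found for 1 of 10, and in 15.8% of all. The median of the 10 mean log2 ratios was -0.036, next to 0.0087 over all tested probes.

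Replicate 1 stood apart from the other arrays. Its log2 ratios had, across tested probes (not independent of each other), correlations of -0.16 to 0.057 with those of replicates 2 to 4, whereas replicates 2 to 4 correlated with each other at 0.68 to 0.77. The probe of the large ribosomal RNA (Rn28s1) had a log2 ratio of 1.42 on replicate 1 and of -3.35 to -2.14 on the others, and its part in the results was not tested. All 6 myoblast markers examined (Myod1, Myf5, Des, Cdh15, Itga7, Vcam1) were well above background in all 8 cultures, as were 5 of 6 markers of differentiated muscle. For the myoblast markers, the log2 of the summed signals lay between 15.83 and 16.05 in the control cultures. It lay between 15.92 and 16.03 in the palmitate cultures. For differentiated muscle, the ranges were 13.72 to 13.92 in the control and 13.57 to 13.98 in the palmitate cultures. The first sum follows its brightest probe, Itga7. The second sum follows its brightest probe, Acta1, and within the list Myog and Myh3 were above 0 on all 4 arrays, with means of 0.30 and 0.32 (adjusted p = 0.141 and 0.150 from limma). Of 3 markers of fat cells and 3 of epithelium, 2 of each list were at background in every culture. Among 3 endothelial markers, Cdh5 was at background in every culture, whereas Pecam1 and Kdr were above it in all 8, and Kdr had a log2 ratio of 0.98 on replicate 1 and of -1.33 to -0.93 on the others. Of the blood markers, Cd3e was above background in all 8 cultures, with a log2 ratio of 0.38 on replicate 1 and of -0.25 to -0.11 on the others, and Ptprc in 5, and the part of these markers in the results was not tested. The values that follow are on the log2 scale, either a normalized signal in 1 culture or a ratio of palmitate over control on 1 array, and signals are compared within a probe only.

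Xiap, the direct inhibitor of caspases, had the lowest unadjusted p of the 10 probes. Its probe (A_55_P2052892) had log2 signals of 12.57, 12.71, 12.76 and 12.83 in the control cultures of replicates 1 to 4. In the palmitate cultures of the same arrays the log2 signals were 12.37, 11.95, 12.01 and 12.21. All 4 palmitate cultures lay below all 4 control cultures, a pattern found in 6.73% of all tested probes, and the gap was narrowest on replicate 1. The log2 ratios were -0.19, -0.77, -0.75 and -0.62, with a mean of -0.58 ± 0.27 (SD, n = 4 arrays), which corresponds to 66.8% of the control signal. This difference was larger than the spread within either group, but it did not pass the adjustment over all probes (adjusted p = 0.118 from limma). An exact sign-flip test over so few arrays cannot reach a p of 0.05, whatever the values. In total RNA from a culture, fewer cells with a transcript and less of it per cell cannot be told apart. Without replicate 1, Xiap fell by 0.71 ± 0.079 (SD, n = 3 arrays, adjusted p = 0.00569 from limma), and 9.22% of all tested probes were called lower in this setting. Without replicate 2, 3 or 4 its means were -0.52, -0.53 and -0.57. None of these passed (adjusted p = 0.440, 0.339 and 0.308 from limma). Against all tested probes, the mean of Xiap over 4 arrays lay at the percentile of 2.52.

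The upstream sequences of Xiap, Casp8 and Cflar, the genes with the lowest unadjusted p, are shown so that the starts of a gene with a lower and a gene with a higher signal can be read side by side. They are the 250 bases before the first start site listed for each gene by RefSeq (GRCm38.p6), 5′ to 3′, at chrX:42068148-42068397, chr1:58802252-58802501 and chr1:58711241-58711490, all on the plus strand. Capitals mark the motifs searched on both strands: the GC box GGGCGG, which Sp1 can bind, and the E-box CANNTG, which myogenic factors such as MyoD can bind.

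Xiap: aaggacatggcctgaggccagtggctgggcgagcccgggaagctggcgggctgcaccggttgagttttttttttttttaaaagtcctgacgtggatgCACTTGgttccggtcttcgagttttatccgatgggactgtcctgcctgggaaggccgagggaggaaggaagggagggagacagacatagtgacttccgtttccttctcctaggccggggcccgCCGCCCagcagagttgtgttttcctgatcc

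Casp8: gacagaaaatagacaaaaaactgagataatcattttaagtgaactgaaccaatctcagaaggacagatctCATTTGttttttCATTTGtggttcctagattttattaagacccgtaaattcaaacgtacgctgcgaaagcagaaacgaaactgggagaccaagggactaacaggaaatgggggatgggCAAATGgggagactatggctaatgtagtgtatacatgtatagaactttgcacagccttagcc

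Cflar: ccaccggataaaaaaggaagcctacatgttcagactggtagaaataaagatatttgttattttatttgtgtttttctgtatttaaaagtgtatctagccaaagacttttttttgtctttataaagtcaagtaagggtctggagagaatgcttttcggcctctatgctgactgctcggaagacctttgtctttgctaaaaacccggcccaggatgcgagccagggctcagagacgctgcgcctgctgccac

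The Xiap window, the first of 3 listed for the gene, held 1 GC box and 1 E-box and had a GC content of 57.6%. The Casp8 window held 3 E-boxes and no other match, with 39.6% GC, and the Cflar window held neither motif, with 42.8% GC. Of all 32851 windows of this length, 32.7% held a GC box and 66.2% an E-box. Over the 11 windows listed for the 8 genes, these motifs were found in 6 and 6. The windows of Apaf1, Diablo and Casp9 were richer in GC (75.6, 70.4 and 66.0%) than those of Casp8, Cflar and Birc3 (39.6, 42.8 and 43.6%). The windows of Birc2 had 68.4 and 61.2%, and the other windows of Xiap 46.4 and 39.2%. A match is a run of letters and not a measured site.

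**Figure D1:**
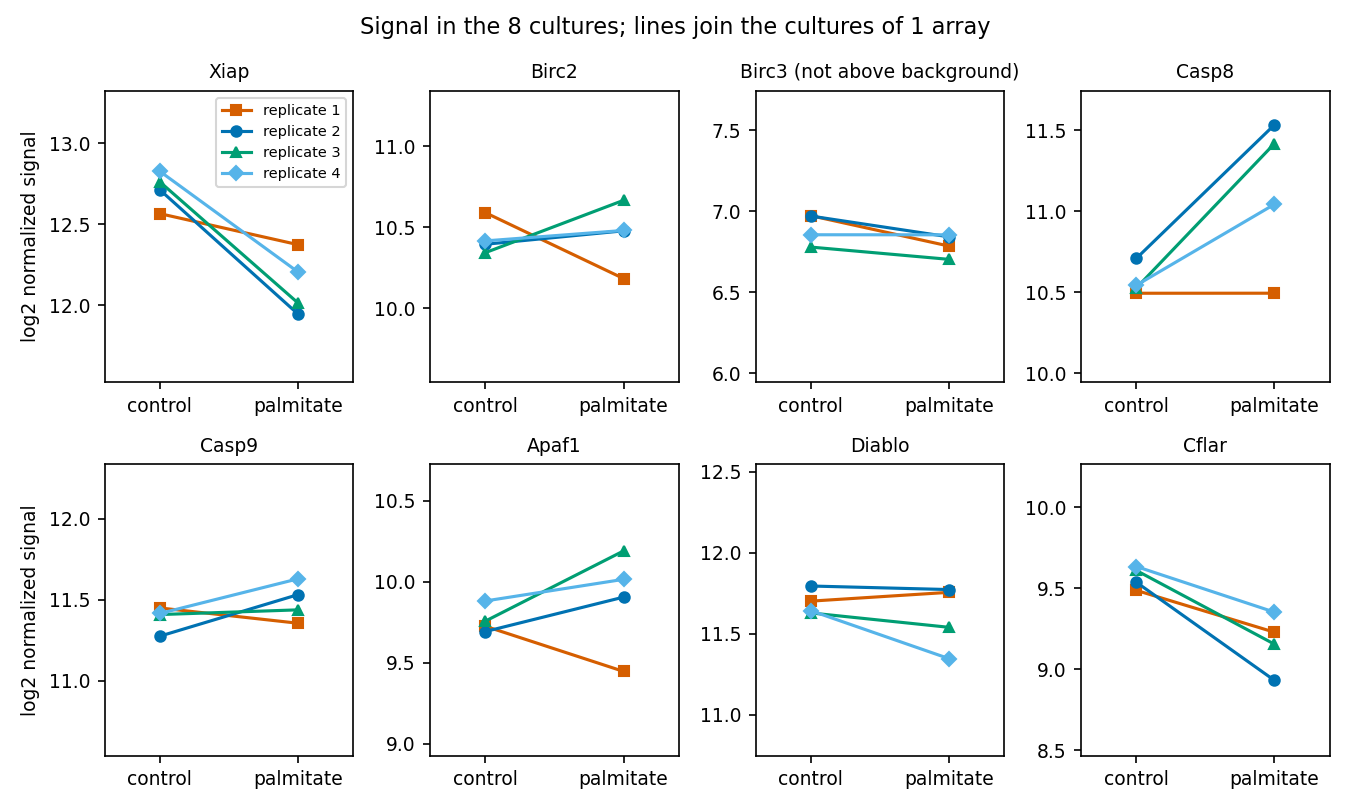
Log2 normalized signal (y axis, same span in every panel) of the brightest tested probe of each gene, and of the Birc3 probe, in the control and palmitate cultures (x axis). Lines join the 2 cultures of 1 array, and symbols are replicates. The lines of Xiap and Cflar fall on all 4 arrays, those of Casp8 rise on replicates 2 to 4 and are flat on replicate 1, and the Birc3 probe was not above background.

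Birc2, the ubiquitin ligase cIAP1, had log2 ratios of -0.41, 0.083, 0.32 and 0.064 on replicates 1 to 4. It lay below 0 on replicate 1 and above 0 on the other 3 arrays, so that the mean of 0.016 ± 0.31 (SD, n = 4 arrays) was smaller than the spread (adjusted p = 0.954 from limma). The log2 signals in control cultures were 10.59, 10.40, 10.34 and 10.42, and those in palmitate cultures were 10.18, 10.48, 10.67 and 10.48, which overlap. Birc3, which is the next coding gene to Birc2 on chromosome 9, was not well above background in any of the 8 cultures. Within each array, the log2 ratio of Xiap minus that of Birc2 was 0.21, -0.85, -1.07 and -0.69. This difference changed its sign on replicate 1, and its mean of -0.60 ± 0.56 (SD, n = 4 arrays) had an exact sign-flip p of 0.25 (two-sided).

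Diablo, the mitochondrial antagonist of these inhibitors, was represented by 2 probes for the same transcript (NM_023232). Its brightest probe (A_51_P494929) had log2 ratios of 0.054, -0.022, -0.089 and -0.30 on replicates 1 to 4, and the mean was -0.088 ± 0.15 (SD, n = 4 arrays, adjusted p = 0.589 from limma). The other probe (A_66_P133025) had -0.17, -0.27, -0.014 and -0.044, with a mean of -0.12 ± 0.12 (SD, n = 4 arrays, adjusted p = 0.415 from limma). Both means were close to 0, and their difference within an array had no constant sign. The log2 ratio of Xiap minus that of Diablo was -0.25, -0.74, -0.66 and -0.33, below 0 on all 4 arrays, with a mean of -0.49 ± 0.25 (SD, n = 4 arrays). The inhibitor therefore had a lower ratio than its antagonist on each array, although the exact sign-flip p is then the smallest that 4 arrays allow and becomes 0.292 after Benjamini-Hochberg adjustment over the 21 pairs of the 7 tested genes.

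Apaf1, the scaffold of the apoptosome, had log2 ratios of -0.28, 0.21, 0.43 and 0.13 on replicates 1 to 4, and a mean of 0.13 ± 0.30 (SD, n = 4 arrays, adjusted p = 0.585 from limma). Casp9, the initiator caspase which it activates, had -0.094, 0.26, 0.029 and 0.21, and a mean of 0.10 ± 0.16 (SD, n = 4 arrays, adjusted p = 0.544 from limma). Both genes lay below 0 on replicate 1 and above 0 on the other 3 arrays, and for both the cultures of the groups overlapped. Without replicate 1 the means were 0.26 for Apaf1 and 0.17 for Casp9, and neither passed (adjusted p = 0.112 and 0.257 from limma). Leaving out another array lowered them, Apaf1 to 0.022 without replicate 3, and Casp9 to 0.050 without replicate 2 and 0.064 without replicate 4. Cycs (cytochrome c), which completes the apoptosome, had 0.083, 0.13, -0.21 and -0.25, with no constant sign.

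Casp8, the initiator caspase of death receptors, had the highest mean of the 7 tested genes. Its log2 signals were 10.49, 10.71, 10.53 and 10.54 in the control cultures of replicates 1 to 4 and 10.49, 11.53, 11.42 and 11.04 in the palmitate cultures. The palmitate cultures of replicates 2 to 4 lay above all 4 control cultures, while that of replicate 1 equalled its control. The log2 ratios were 0.00023, 0.82, 0.89 and 0.50, with a mean of 0.55 ± 0.41 (SD, n = 4 arrays), a signal 1.47-fold higher with palmitate (adjusted p = 0.140 from limma). Although the ratio was above 0 on 4 of 4 arrays, on replicate 1 it was so by a margin far below the spread. Without replicate 1, Casp8 rose by 0.74 ± 0.21 (SD, n = 3 arrays, adjusted p = 0.00812 from limma), where 8.78% of all tested probes were called higher. Without replicate 2, 3 or 4 its means were 0.46, 0.44 and 0.57. None of these passed (adjusted p = 0.505, 0.366 and 0.329 from limma).

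Cflar, the inhibitor of caspase 8, is the coding gene next to Casp8 on chromosome 1, and its brightest probe had the opposite sign. This probe (A_52_P226929) had log2 signals of 9.49, 9.54, 9.61 and 9.63 in the control and 9.23, 8.93, 9.15 and 9.35 in the palmitate cultures. All 4 palmitate cultures lay below all 4 control cultures, as in 6.73% of all tested probes. The log2 ratios were -0.26, -0.61, -0.45 and -0.28, with a mean of -0.40 ± 0.16 (SD, n = 4 arrays), a signal 1.32-fold lower with palmitate (adjusted p = 0.122 from limma). The value of replicate 1 lay close to that of replicate 4, so that for this probe replicate 1 did not stand apart. Without it, the probe fell by 0.45 ± 0.16 (SD, n = 3 arrays, adjusted p = 0.0259 from limma), where 9.22% of all tested probes were called lower. Without replicate 2, 3 or 4 the means were -0.33, -0.38 and -0.44. None of these passed (adjusted p = 0.446, 0.339 and 0.308 from limma).

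The 3 probes of Cflar differed among themselves. A_55_P1983468, for the transcript NM_009805, had log2 ratios of -0.30, -0.17, -0.37 and 0.047 (mean -0.20 ± 0.18, SD, n = 4 arrays, adjusted p = 0.283 from limma). A_55_P1983459, which is listed for the same transcript as the brightest probe (NM_207653), had -0.040, 0.19, 0.38 and 0.033 (mean 0.14 ± 0.18, SD, n = 4 arrays, adjusted p = 0.429 from limma). The brightest probe lay below this second probe of NM_207653 on all 4 arrays, with a mean difference of -0.54 ± 0.32 (SD, n = 4 arrays), and the exact sign-flip p was the smallest that 4 arrays allow. A lower level of Cflar with palmitate therefore holds for 1 of its 3 probes at the unadjusted threshold, and the signs of the probes differ in this processing. The sign of A_55_P1983459 depended on the processing. With a shift of each channel to its 75th percentile, on signals without background correction, it had -0.35 (adjusted p = 0.0439 from the methods' t-test). The median of all tested probes was -0.17 in this setting, and relative to it the probe had -0.18.

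**Figure D2:**
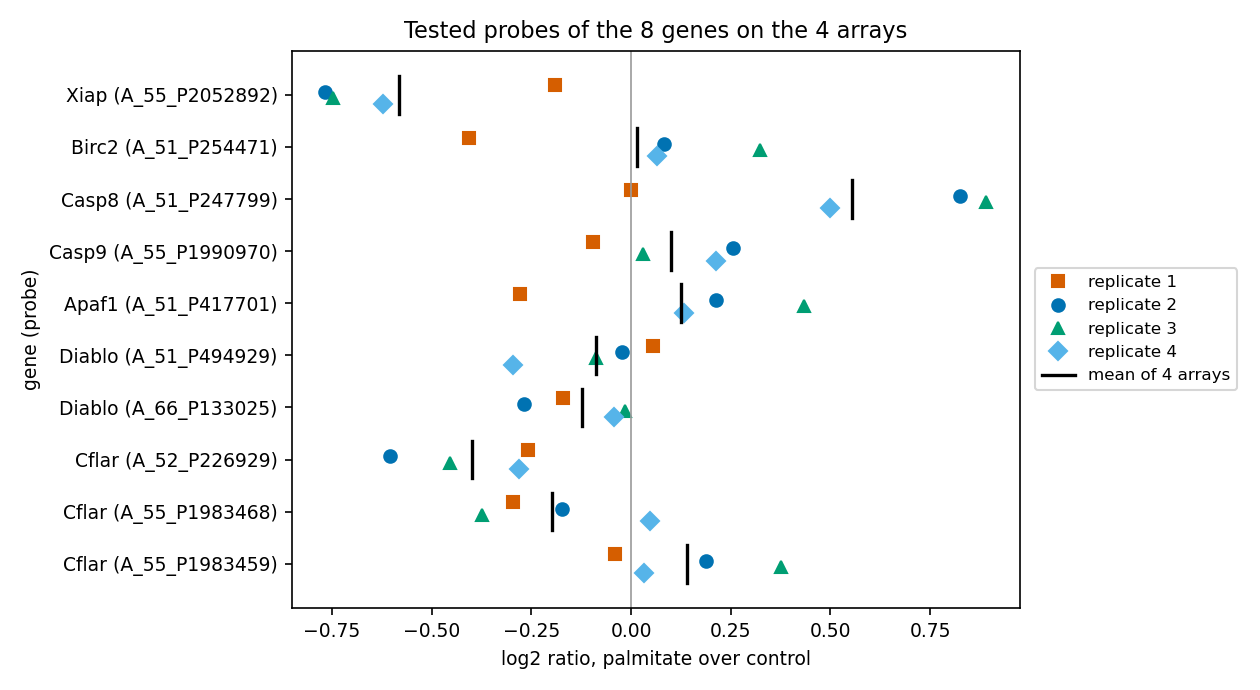
Palmitate over control as log2 ratio (x axis) for the 10 tested probes (y axis). Each symbol is 1 array and each vertical bar a mean. Xiap and the first probe of Cflar lie below 0 on every array, Casp8 lies between 0.50 and 0.89 on replicates 2 to 4, and the 3 probes of Cflar have means of -0.40, -0.20 and 0.14.

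Within the same array, the log2 ratio of Casp8 minus that of the brightest probe of Cflar was 0.26, 1.43, 1.35 and 0.78, above 0 on all 4 arrays, with a mean of 0.95 ± 0.55 (SD, n = 4 arrays). Xiap minus Casp8 was -0.19, -1.59, -1.64 and -1.12, and this pair had the widest mean difference of the 21 pairs (-1.14 ± 0.67, SD, n = 4 arrays). In total, 9 of the 21 pairs kept their sign on all 4 arrays, each with an adjusted exact sign-flip p of 0.292. The share of such pairs among all tested genes was not counted, so that whether 9 of 21 is unusual is not known. Such a difference can come from 2 transcripts that changed unequally on an array, or from probes that differ in dye response. It can also come from the spread between arrays, and these cannot be told apart here. The pairs share genes, so that they are not independent of each other. For Casp8 minus Cflar and for Xiap minus Casp8, the difference was smallest on replicate 1.

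The wider pathway was described with a list of 51 genes in 7 groups, in which the 8 genes are included, and 46 of the list had a tested probe. With the brightest tested probe of each gene, 0 were lower and 0 higher at an adjusted p of 0.05 in limma over all tested probes, and 6 were lower and 4 higher at an unadjusted p under 0.05. Among the brightest probes of all 13712 tested named genes, 13.3% were lower and 10.8% higher at this limit. The median of the list was -0.032, next to 0.0013 over all named genes. Without replicate 1, 6 genes of the list were lower and 7 higher at an adjusted p of 0.05, where 9.84% of the named genes were lower and 8.76% higher. The genes named in the following had the lowest unadjusted p of their group among genes other than the 8, unless said otherwise.

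Of the 10 caspases, all of them tested, 2 were lower and 1 higher at an unadjusted p under 0.05. Casp2, which is activated on the PIDDosome after DNA damage, had log2 ratios of -0.40, -0.57, -0.36 and -0.38 (mean -0.43 ± 0.097, SD, n = 4 arrays, adjusted p = 0.118 from limma). Its ratio on replicate 1 lay within the range of the other 3 arrays. Casp6, an effector caspase that cleaves lamins and was picked with its values in view, had -0.24, 0.59, 0.61 and 0.35 (mean 0.33 ± 0.40, SD, n = 4 arrays, adjusted p = 0.274 from limma). It lay below 0 on replicate 1 and above 0 on the others, and passed without replicate 1 (adjusted p = 0.0163 from limma).

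Of 10 genes for proteins with BIR domains, 8 were tested, and 1 was lower (Xiap) and 1 higher at an unadjusted p under 0.05. The higher gene was Birc6 (BRUCE), a very large ubiquitin-conjugating inhibitor of apoptosis, with log2 ratios of 0.064, 1.65, 0.77 and 1.13 (mean 0.91 ± 0.67, SD, n = 4 arrays, adjusted p = 0.131 from limma). Its ratios were above 0 on all arrays, again with the lowest on replicate 1. Birc5 (survivin), which acts in cell division, had -0.44, -0.18, -0.12 and 0.022 for its brightest probe, with no constant sign, and was named after its values were seen. Other tested probes of Birc5 had means of 0.030 and 0.17. Thus the genes of this group spanned from -0.58 for Xiap to 0.91 for Birc6, with a median of -0.067.

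Among 3 tested antagonists of these inhibitors, Htra2, a mitochondrial serine protease, had log2 ratios of -0.53, -0.70, -0.30 and -0.28 (mean -0.45 ± 0.20, SD, n = 4 arrays, adjusted p = 0.118 from limma). With Diablo near 0, the mean ratios of the antagonists ranged from -0.45 to 0.074. Of 14 tested death receptors, ligands and adaptors, 1 was lower and 1 higher at an unadjusted p under 0.05. Ripk1, a kinase of the TNF receptor complex, had 0.46, 0.61, 0.33 and 0.019 (mean 0.35 ± 0.25, SD, n = 4 arrays, adjusted p = 0.159 from limma). Fadd, the adaptor that brings caspase 8 to its receptors, had 0.050, -0.28, 0.055 and -0.19, and Fas had 0.056, 0.28, 0.050 and 0.12. Fadd had no constant sign, Fas was above 0 on every array but did not pass (adjusted p = 0.396 from limma), and these genes were picked with their values in view.

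Of the 4 regulators with a death effector domain, 1 was lower (Cflar) and 1 higher at an unadjusted p under 0.05. Pea15a, which binds Fadd and caspase 8 and can restrain receptor-mediated death, had log2 ratios of 0.19, 0.26, 0.40 and 0.46 (mean 0.33 ± 0.12, SD, n = 4 arrays, adjusted p = 0.130 from limma). It was above 0 on every array, in contrast to the brightest probe of Cflar. None of the 5 genes for execution and DNA breakdown had an unadjusted p under 0.05. Dffa, the inhibitor of the caspase-activated DNase, had -0.037, 0.47, 0.41 and 0.14 for its brightest probe, with no constant sign.

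**Figure D3:**
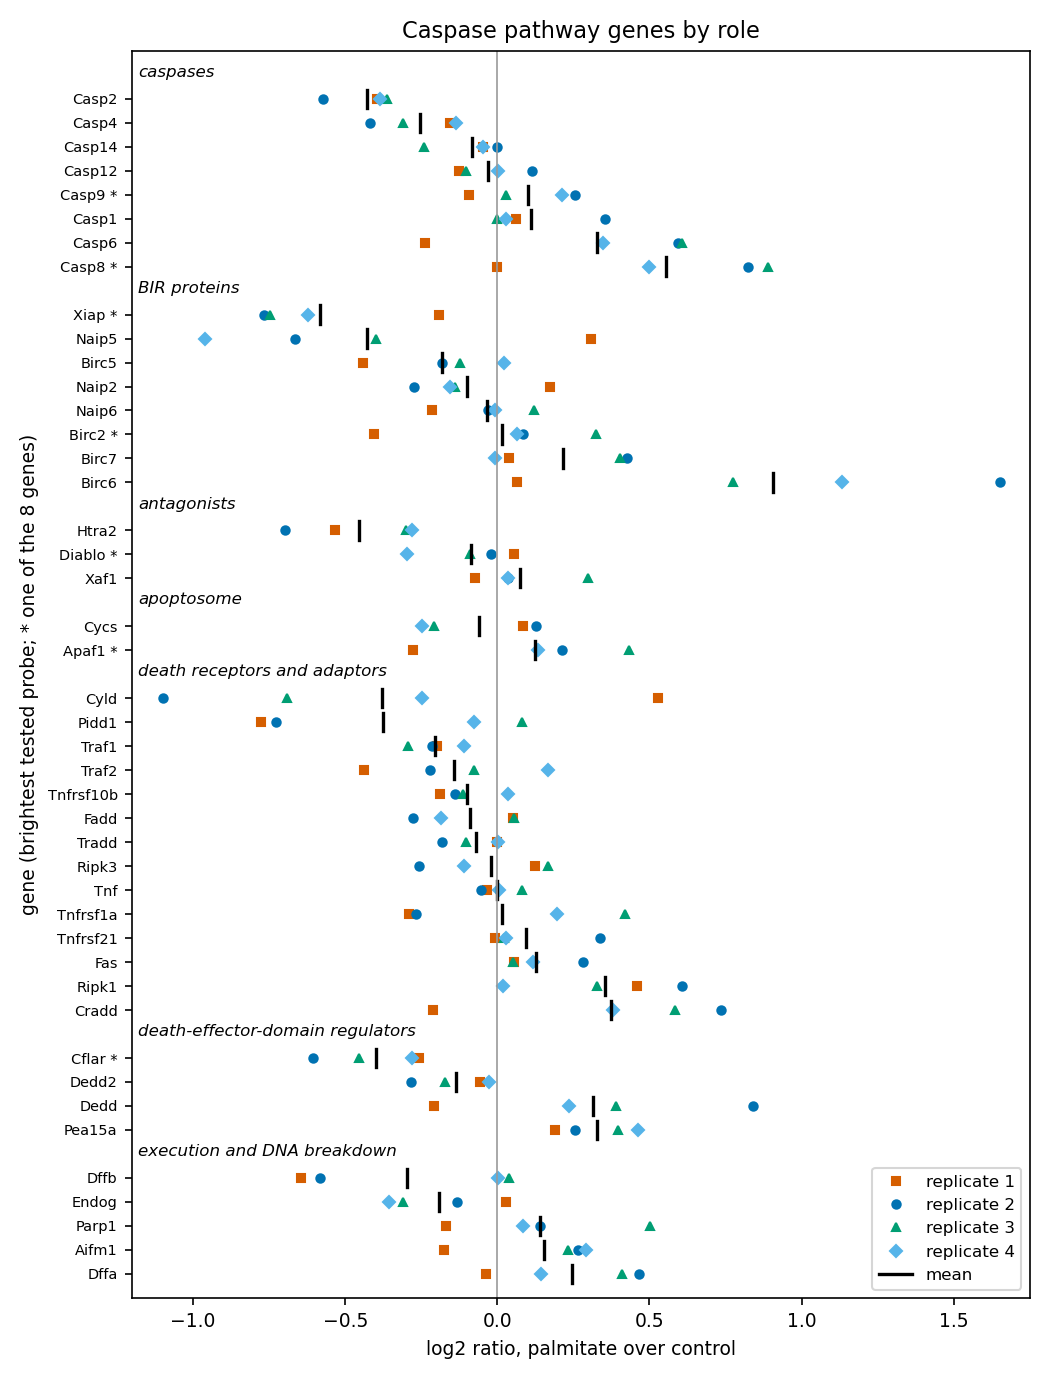
Palmitate over control as log2 ratio (x axis) for the brightest tested probe of 44 of the 46 tested genes of the caspase pathway (y axis), grouped by role and ordered by the mean. Each symbol is 1 array, each vertical bar a mean, and asterisks mark the 7 tested genes of the 8. The means run from -0.58 (Xiap) to 0.91 (Birc6), and replicate 1 often lies apart from the other arrays.

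The genes whose brightest tested probe lay nearest to Xiap over the 4 arrays, by the Euclidean distance of the log2 ratios among 13712 named genes, were Hes1, Gcat and Ppm1l, at distances of 0.054, 0.12 and 0.13. Hes1, a transcriptional repressor downstream of Notch, had log2 ratios of -0.21, -0.80, -0.71 and -0.61. With only 4 arrays and this many genes, near neighbours are to be found for most profiles.

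Among the alternatives, Xiap and the brightest probe of Cflar changed sign only with no dye normalization. Casp8 kept its sign wherever it had a value. With median centring of each array instead of loess, Xiap had -0.27, the brightest probe of Cflar -0.13 and Casp8 0.87. The signs held, but the unadjusted p from limma rose to 0.392, 0.582 and 0.0607, from 0.00217, 0.00414 and 0.0114 with loess. The adjusted p from limma with median centring were 0.815, 0.877 and 0.781. The median of all tested probes was 0.19 in this setting, and relative to it Xiap had -0.46, Cflar -0.32 and Casp8 0.68. With no dye normalization this median was 0.99. Median centring only subtracts a constant from each array, so that the values relative to the median had to be nearly the same in both settings. With no dye normalization, 8 of the 10 probes were called higher and 0 lower, as were 84.1% and 0.108% of all tested probes. With a shift of each channel to its 75th percentile and the methods' t-test, 4 of the 10 probes were called lower and 0 higher, next to 9.45% and 1.32% of all. Across the processing alternatives that gave a value, Xiap lay between -0.72 and -0.35 relative to the median of all tested probes, the brightest probe of Cflar between -0.60 and -0.32, and Casp8 between 0.43 and 0.82.

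**Figure D4:**
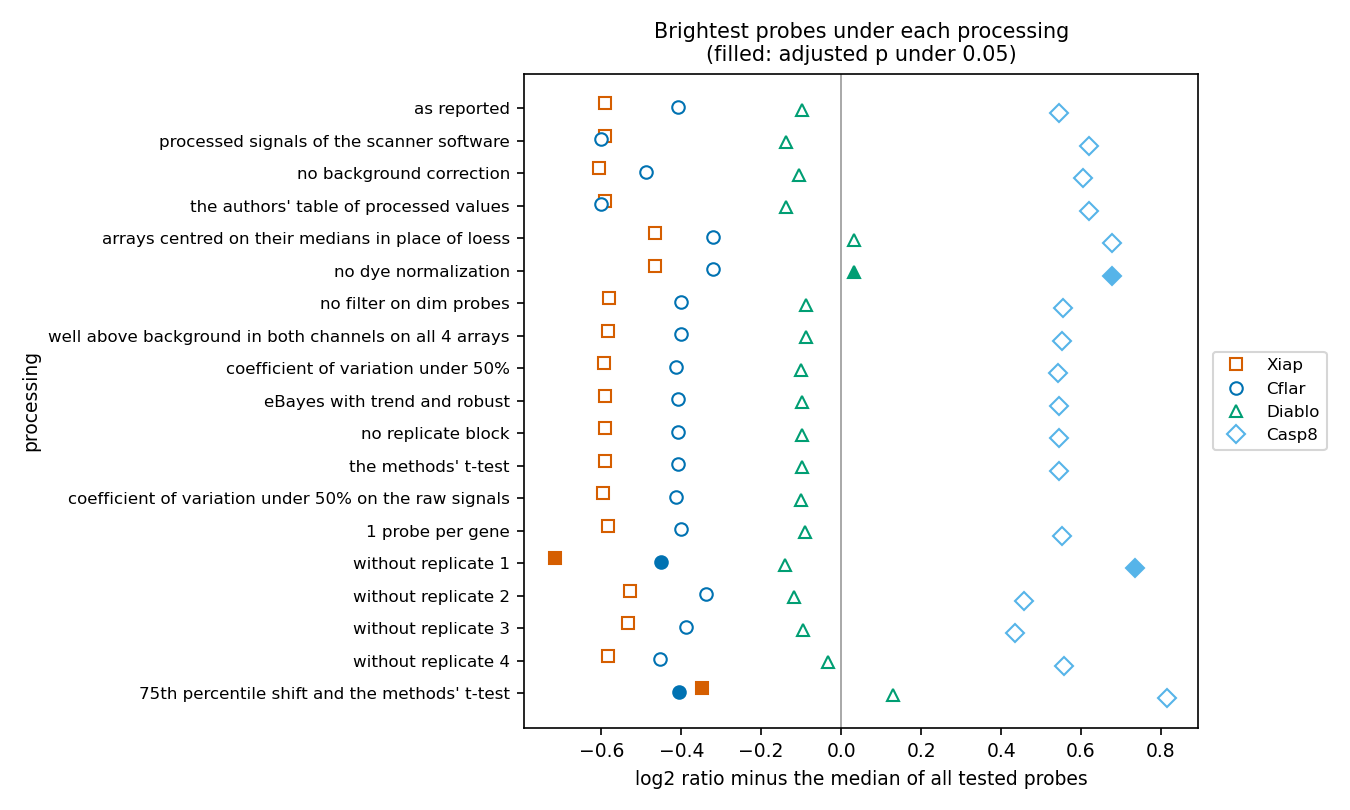
Log2 ratio of palmitate over control minus the median of all tested probes (x axis) for the brightest probes of Xiap, Cflar, Diablo and Casp8 under each way of processing (y axis). Filled symbols have an adjusted p under 0.05 for the ratio against 0, before the median was subtracted. Diablo is therefore filled at 0.033 with no dye normalization. Rows that differ only in filter, variance model, pairing, test or choice of probe rest on the same log2 ratios. Xiap and Cflar lie below 0 in every row and Casp8 above 0 in every row in which it has a value (it has none with the limit on variation of raw signals), whereas Diablo lies near 0 on either side, and filled symbols are found in 3 rows: without replicate 1, with no dye normalization and with the 75th percentile shift.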

How the data were processed

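RNA from 4 control and 4 palmitate cultures was hybridized as pairs to 4 arrays of 1 slide and read by the authors with Agilent Feature Extraction 10.7.3.1. Of the deposited columns, spot and background medians are uncorrected intensity, whereas the processed signals are intensity from which the software had removed background and dye bias. A deposited log10 ratio (Cy5 over Cy3) accompanies them. A further deposited table gives log2 ratios in the same direction, and these differ from log2 of the processed Cy5 over Cy3 signals by at most 3.02e-06.

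Background was corrected with normexp (offset 50) on the median signals and the dyes were then brought together by loess, array by array, in limma 3.58.1 (R 4.3.3). Spots with outlier flags (250 to 374 per array) were left out, and spots of a probe were averaged. None of the probes of the 8 genes was flagged or saturated. Among the 24169 tested probes, 114 lacked an array for this reason. Tested probes had to be well above background in the same dye on every array. Mean log2 ratios were tested against 0 with lmFit and eBayes, with Benjamini-Hochberg adjustment over all tested probes, and the array pairs the cultures. Signals per culture were taken after Aquantile scaling between arrays. Probes were named through RefSeq accessions (26055 of 39429), and a gene is represented by its brightest tested probe.

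The members, the pathway list and the tests were chosen with earlier results of these data known. Named were all probes of the 8 genes, the gene of lowest unadjusted p in each group of the list (the 8 apart), and the 3 genes nearest to Xiap. Casp6, Birc5, Fadd and Fas were added outside this rule, after their values were seen. Between 57.6 and 64.0% of gene probes passed background in control cultures, and 61.9 to 70.7% in palmitate cultures. Precision is limited by having 4 arrays. The p-values measure the spread between the 4 arrays, which the labels call biological replicates. The fit was tested on simulated data for this comparison (24055 probes): it recovered 69% of 100 probes given a log2 change of 1 and 92% of 100 given a change of 2, and called 7 unchanged probes. The simulated noise was drawn independently for each probe and array. Changes as small as those of the 8 genes were not simulated, so that the recovery of such changes is not known. The alternatives changed the background correction, dye normalization, source of values, filters, variance model, pairing, test, choice of probe and replicates. The readings of the methods with a 75th percentile shift and with the coefficient of variation of the raw signals were added after seeing the data. The 75th percentile shift was applied to median signals without background correction. The values of 2 genes of the pathway list are not reported here, although the counts over the list include them.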

Additional observations from a re-analysis of the deposited data

Results flagged for a closer look

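In Casp2, replicate 2 had a log2 ratio of -0.57 and lay apart from the other 3 arrays, which lay between -0.40 and -0.36. This was 1 of 51 sets of 4 values examined (ratios and signals of the tested probes of the 8 genes and of the named pathway genes), and chance alone gives about 1 in 20. Its part in the mean of Casp2 was not tested.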

How the results depend on the processing

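Over the alternatives for the brightest probes of the 7 tested genes, 108 of 124 values kept their sign and their side of an adjusted p of 0.05, 9 passed it with the same sign, and 7 changed sign. Alternatives that changed only the filter, variance model, pairing, test or choice of probe used the same log2 ratios, so that no sign could change there. The processed signals and the authors' table hold nearly the same values and are not separate checks. Leaving out 1 array gave 0 to 2229 lower and 0 to 2123 higher tested probes, 0 to 2 lower and 0 to 1 higher probes of the 8 genes, and 0 to 6 lower and 0 to 7 higher pathway genes; all of these calls came without replicate 1, where Xiap, Cflar and Casp8 passed. With no dye normalization, 26 tested probes were lower and 20322 higher, with 8 higher probes of the 8 genes and 38 higher pathway genes. Xiap, Cflar and Diablo then turned to 0.52, 0.67 and 1.02. The median of all tested probes was 0.99 in this setting, and relative to it they had -0.46, -0.32 and 0.033. Diablo also turned to 0.22 with the arrays centred on their medians. Birc2, whose mean was near 0, ranged from -0.086 to 0.16 with 1 array left out, and turned to -0.0064, -0.086 and -0.00021 without replicate 2, 3 and 4. With the 75th percentile shift and the methods' t-test, chosen after seeing the data, 2284 tested probes were lower and 318 higher. Among them were 4 lower probes of the 8 genes (Xiap, 2 of Cflar and the second of Diablo), and 5 pathway genes were lower. Of these Cflar probes, A_55_P1983459 changed its sign, to -0.35. The median of all tested probes was then -0.17. Relative to it, A_55_P1983459 had -0.18 and the brightest probe of Diablo 0.13. Pairing on the array was part of the design: with no replicate block, 39 tested probes were lower and 32 higher, and 0 of the 8 genes. With the methods' t-test in place of limma there were 6 lower and 4 higher. The processed signals and the authors' table each gave 13 higher, and 2 were higher with probes limited by coefficient of variation (on normalized or on raw signals) and with 1 probe per gene. The cause of these moves was not tested. With raw signals, Casp8 and Apaf1 were left out by this limit. The other alternatives gave 0 calls.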
